A study of Mus musculus with 6 samples.

Results

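The 9 genes described here encode the ligand insulin-like growth factor 1 (Igf1), the tyrosine kinase receptors for IGFs and insulin (Igf1r and Insr), and the binding proteins Igfbp2, Igfbp3, Igfbp4, Igfbp5, Igfbp6 and Igfbp7. They were chosen by name, as the IGF ligand, receptor and binding protein genes listed for this description, and their rows were taken from a table of 22964 genes through their Ensembl identifiers. All 9 passed the filter on low counts. The table holds RNA sequencing of lymphatic endothelial cells sorted from the meninges of wild-type male C57BL/6J mice without treatment, 3 samples from mice aged 2 to 3 months (young) and 3 from mice aged 20 to 24 months (old). The sort kept cells without surface CD45 that carried CD31 and podoplanin. The samples held 14285794 to 21043945 estimated counts. The labels do not say whether a sample was 1 animal or a pool, so the spread between samples may be technical, and p-values measure only that spread.

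IGF1 and IGF2 are small secreted hormones that resemble proinsulin and act through the IGF1 receptor, a tyrosine kinase at the cell surface that signals through insulin receptor substrates to PI3K and Akt. The insulin receptor is its closest relative, and the pair can form hybrid receptors. IGF-binding proteins hold the ligands in extracellular fluid and matrix, where they can withhold them from the receptor or release them after cleavage by proteases. IGFBP7 binds IGFs weakly and is a matrix protein of vessel walls. IGF1 has been described as a growth signal for lymphatic vessels, and the meninges are a known source of IGF2 and of several binding proteins.

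Stretches of DNA before the starts of 4 of these genes are shown because Igfbp5, Igfbp7 and Igfbp4 had the highest levels of the 9 per kilobase of exon, and Igf1r was the member higher in every old sample. Each runs from 150 to 20 bases before the RefSeq start, 131 bases on the sense strand, 5′ to 3′, in GRCm38.p6. The regions are chr1:72874885-72875015 (minus strand) for Igfbp5, chr5:77408065-77408195 (minus strand) for Igfbp7, chr11:99041094-99041224 (plus strand) for Igfbp4 and chr7:67952107-67952237 (plus strand) for Igf1r. None overlaps an annotated exon. For Igf1r the RefSeq start used lies upstream of the GENCODE M21 gene start at 67952827, so its stretch does not lie directly before that start. Capitals mark matches, on either strand, to TATAAA or TATTTAA (both TATA-type motifs), GGGCGG (the GC box, CCGCCC when read from the other strand) or TGTTTAC (a FoxO-type motif).
Igfbp5: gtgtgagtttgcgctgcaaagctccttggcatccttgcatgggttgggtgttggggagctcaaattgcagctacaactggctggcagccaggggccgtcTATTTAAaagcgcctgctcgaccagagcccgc
Igfbp7: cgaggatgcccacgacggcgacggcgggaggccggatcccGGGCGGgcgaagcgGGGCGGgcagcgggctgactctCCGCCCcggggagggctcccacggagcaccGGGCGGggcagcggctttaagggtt
Igfbp4: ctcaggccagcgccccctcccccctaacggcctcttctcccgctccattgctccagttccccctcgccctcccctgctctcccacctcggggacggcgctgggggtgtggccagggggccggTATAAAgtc
Igf1r: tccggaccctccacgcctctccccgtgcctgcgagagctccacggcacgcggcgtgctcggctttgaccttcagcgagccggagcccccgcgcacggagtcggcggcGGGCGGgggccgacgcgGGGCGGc

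The stretch before Igfbp5 held 1 match to TATTTAA, which 2.02% of 32851 RefSeq windows of the same length and position hold. That before Igfbp4 held 1 match to TATAAA, present in 6.96% of windows. The GC box, present in 25.3% of windows, occurred 4 times before Igfbp7 and 2 times before Igf1r. TGTTTAC, present in 1.56% of windows, occurred in none of the 4 stretches, and no matches overlapped. The G and C content was 58.0% for Igfbp5, 71.0% for Igfbp4, 77.9% for Igfbp7 and 78.6% for Igf1r, against a median of 53.4% over all windows. Of the 9 genes, 8 had a window in the RefSeq table, and Insr did not. The motifs were chosen after the sequences were seen, and a match is a description of letters, not a binding site.

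The genes lie on 7 chromosomes in GRCm38 (GENCODE M21), and 2 of them are neighbours. Igfbp2 (ENSMUSG00000039323; chromosome 1, 72824503 to 72852474, plus strand) and Igfbp5 (ENSMUSG00000026185; chromosome 1, 72857932 to 72874884, minus strand) point towards each other with 5457 bases between them. Igfbp3 (ENSMUSG00000020427; 7206086 to 7213923, minus strand) and Igfbp4 (ENSMUSG00000017493; 99041244 to 99054392, plus strand) are both on chromosome 11, far apart. Igf1 (ENSMUSG00000020053) spans 87858265 to 87937042 on chromosome 10, plus strand, Igf1r (ENSMUSG00000005533) spans 67952827 to 68233668 on chromosome 7, plus strand, and Insr (ENSMUSG00000005534) spans 3122061 to 3279617 on chromosome 8, minus strand. Igfbp6 (ENSMUSG00000023046) spans 102144362 to 102149511 on chromosome 15, plus strand. Igfbp7 (ENSMUSG00000036256) spans 77349240 to 77408041 on chromosome 5, minus strand, and shares 85 exon bases with Polr2b on the opposite strand. The sources used here do not give whether the counting used strand, so reads from the shared bases could belong to either gene. The other 8 genes shared no exon base with another gene.

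Igfbp5 was by far the most abundant of the 9 transcripts. Per kilobase of annotated exon, its level averaged 1342.3 CPM (estimated counts scaled to library size) over the 6 samples, 5.12 times that of Igfbp7 at 262 and well above Igfbp4 at 144. These 3 were separated from each other and from Igf1, at 41.8, in every sample. Below them the ranges of neighbouring genes overlapped: Igfbp3 averaged 40.8, Igfbp6 21.1, Insr 20.4, Igf1r 16.8 and Igfbp2 9.41 CPM per kilobase. The order between these neighbours was not separated by the spread over samples. Whether the linear amplification covered transcripts evenly along their length was not tested.

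**Figure D1:**
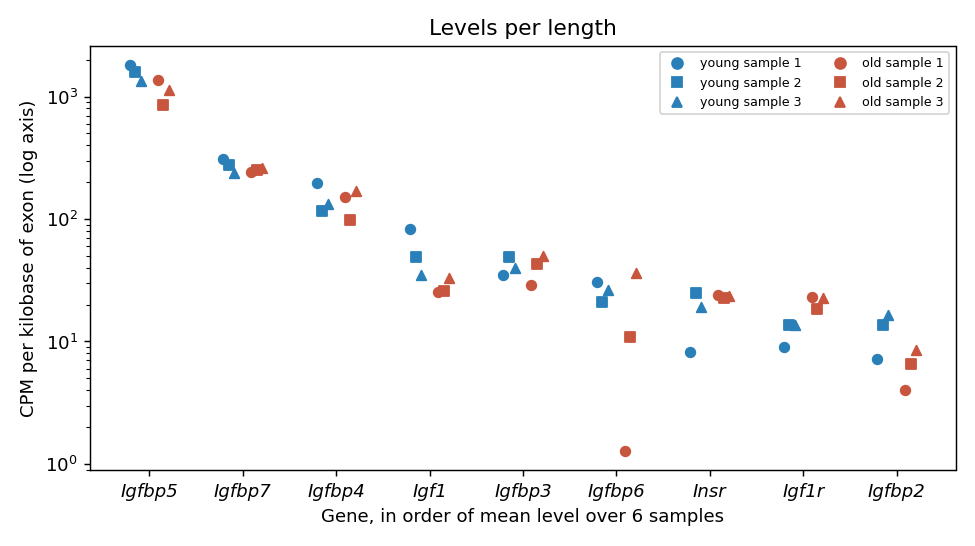
Level of each gene in CPM per kilobase of annotated exon (log axis) in each of the 6 samples, with genes in order of their mean. Igfbp5, Igfbp7 and Igfbp4 are separated from each other and from Igf1 in every sample, and the ranges of all later neighbours overlap.

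Among the 6 binding protein transcripts, Igfbp5 made up 75.6%, 76.7% and 74.7% of their summed level per kilobase in young samples 1, 2 and 3. In old samples 1, 2 and 3 it made up 76.2%, 67.6% and 68.4%. Old sample 1 lay within the young range and the other old samples lay below it. Igfbp7 made up 13.1% to 13.5% in young samples and 13.4%, 19.8% and 15.8% in old ones. The summed level itself was 2382.0, 2050.2 and 1777.1 CPM per kilobase at the young age, against 1787.6, 1268.0 and 1654.7 at the old age, so the sums overlapped through young sample 3 and old sample 1.

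The comparison of old with young cells asks how the transcripts of the IGF system differ with age in these cells. None of the 9 genes passed the test: edgeR's quasi-likelihood test with Benjamini-Hochberg adjustment over 15394 genes called 0 of them, where it called 0.0% of all genes. Unadjusted p was under 0.05 for 3 of the 9 (Igf1, Igf1r and Igfbp5), where 5.56% of all genes tested and 12.2% of the genes of at least 100 CPM reached that level. In 1 of the 3, Igf1r, the old value was higher (2.86% of all genes), and in the other 2 it was lower (2.7%). DESeq2 and limma-voom, run as alternatives, also called 0 of the 9, while calling 0.844% and 0.0195% of all genes, with 2 and 3 of them at an unadjusted p under 0.05. Of the 9 log2 fold changes 2 were positive and 7 negative, with a median of −0.13, against a median of 0.02 over all genes tested. The groups did not overlap for Igf1 and Igf1r, as for 12.0% of all genes tested (5.56% with old higher and 6.44% with old lower) and 16.9% of those of at least 100 CPM.

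**Figure D2:**
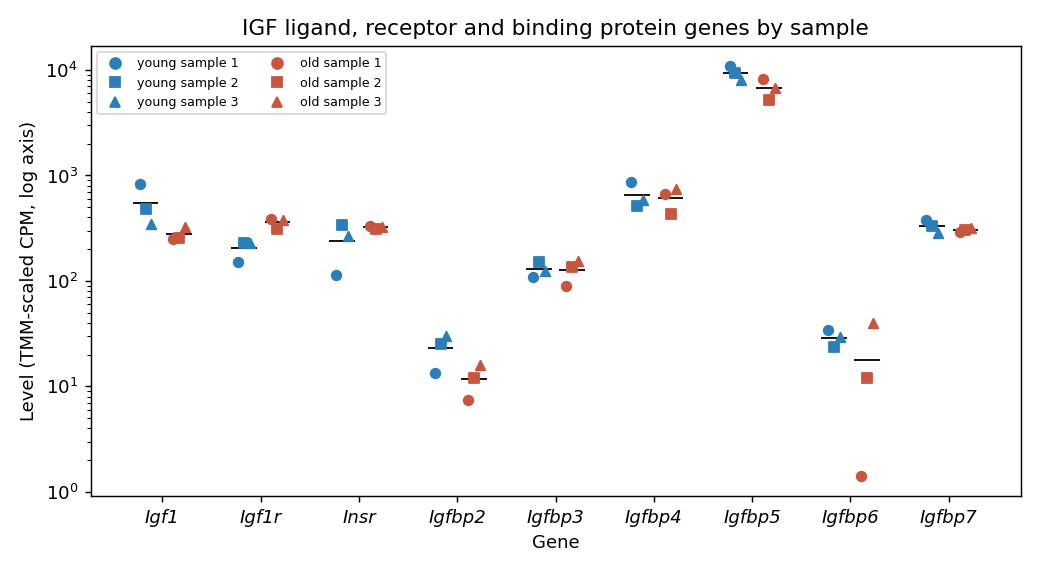
Level of each of the 9 genes in TMM-scaled CPM (log axis) in each sample, with bars at the group means of 3 samples. Igf1 is lower and Igf1r higher in every old sample than in every young one, while the groups overlap for the other 7 genes.

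The ligand gene Igf1 had lower values in old cells. Its level was 827, 485 and 343 CPM in young samples 1, 2 and 3, against 249, 256 and 325 CPM in old samples 1, 2 and 3. Every old sample lay below every young sample, and old sample 3 came close to young sample 3. The means were 552 ± 249 CPM (SD, n = 3) in young and 277 ± 41.7 CPM (SD, n = 3) in old cells. The log2 fold change was −1.0 (SE 0.33), with edgeR unadjusted p = 0.0146 and adjusted p = 0.847. Without young sample 1 the log2 fold change was −0.58 and the unadjusted p = 0.0712. The counts behind these values were 3329 to 13327 per sample, so counting error is small beside the spread.

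Fibroblast markers were lower in the same samples. All 10 markers had negative log2 fold changes. In 7 of the 10 every old sample lay below every young one, as in 6.44% of all genes tested. The ages overlapped for Pdgfra, the growth factor receptor of fibroblasts, at −0.33, for Dcn at −0.33 and for Slc47a1 at −0.22. The summed level of the 10 fibroblast markers was 5786.7 to 8858.1 CPM in young and 2903.1 to 3421.9 CPM in old samples. As a share of that sum, Igf1 was 9.34%, 7.29% and 5.94% in young samples 1, 2 and 3, against 8.58%, 7.88% and 9.49% in old samples 1, 2 and 3. The shares overlapped, with a mean log2 difference of 0.22, so the lower Igf1 level in old cells was not seen relative to this sum. The sum weighs abundant markers such as Col1a2 (log2 fold change −1.57) most, and ratios to single markers such as Pdgfra were not taken. As a share of the summed lymphatic endothelial markers, Igf1 was 6.16%, 4.46% and 3.02% in young samples 1, 2 and 3, against 1.18%, 1.49% and 1.71% in old samples 1, 2 and 3, a mean log2 difference of −1.6. The old shares of Igf1 were also below all young ones relative to the blood endothelial and the pericyte and smooth muscle sums, with differences of −1.94 and −1.71, while those relative to the macrophage sum overlapped, at −0.17. Whether Igf1 differed between the ages relative to other transcripts therefore depended on the denominator. The 14 macrophage and microglia markers, cells known to make IGF1, summed to 851, 3476.5 and 4725.8 CPM at the young age, against 846, 2302.3 and 1531.7 CPM in the old samples. Of the 14, 13 had negative log2 fold changes and 1, Mrc1, a positive one (0.59), with a median of −1.53. In 1 of the 14 every old sample lay below every young one. Young sample 1, with the highest Igf1, held the lowest macrophage sum of the young samples. Csf1r, which encodes the receptor of their growth factor CSF1, had 77.8 CPM there against 1006.0 and 1797.9 CPM in young samples 2 and 3. Mrc1 and Pf4 were not lowest there: Mrc1 had 401.0 CPM against 451.6 and 361.6, and Pf4 18.1 against 20.9 and 13.1. Mrc1 was a large part of the macrophage sum where that sum was low. It held 401.0 of 851 CPM in young sample 1 and 678.9 of 846 CPM in old sample 1, but 361.6 of 4725.8 CPM in young sample 3. The share of Igf1 relative to a macrophage sum without Mrc1 was not taken. Which cells the Igf1 transcripts came from was not tested. Of the macrophage markers, Cd163 and Pf4 were at 0 in a sample. In these bulk samples, fewer cells of a type and less RNA per cell cannot be told apart.

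The receptor gene Igf1r had higher values in old cells. Its level was 152, 229 and 230 CPM at the young age, against 386, 308 and 382 CPM at the old age. All old samples lay above all young samples, and young sample 1 was the lowest of the 6. The means were 204 ± 44.9 CPM (SD, n = 3) in young and 359 ± 43.9 CPM (SD, n = 3) in old cells. The log2 fold change was 0.82 (SE 0.26) with edgeR unadjusted p = 0.0119 and adjusted p = 0.813. The unadjusted p stayed under 0.05 in all 13 alternatives run, and the adjusted p ranged from 0.289 to 1.0.

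Lymphatic endothelial markers were higher in the same samples. The 10 markers summed to 10875.4 to 13415.9 CPM in young and 17172.5 to 21098.9 CPM in old samples, with all 10 log2 fold changes positive. Prox1, the transcription factor that sets lymphatic fate, had a log2 fold change of 0.29, and none of the 10 was at 0 in any sample. As a share of that sum, Igf1r was 1.13%, 2.11% and 2.03% in young samples 1, 2 and 3 and 1.83%, 1.80% and 2.01% in old samples 1, 2 and 3. The shares overlapped, with a mean log2 difference of 0.15, and young sample 1 alone was low. Blood endothelial markers also had higher sums in old samples, 1302.8 to 1720.4 CPM against 651 to 799 CPM, and Igf1r was 23.3% to 30.8% of that sum in young and 21.2% to 29.7% in old samples. As a share of the fibroblast marker sum, Igf1r was 1.71%, 3.44% and 3.98% in young samples 1, 2 and 3, against 13.3%, 9.48% and 11.2% in old samples 1, 2 and 3. These shares were higher in every old sample, with a mean log2 difference of 1.97. Igf1r thus separated the ages relative to the fibroblast sum and not relative to either endothelial sum. A sum weighs its abundant markers most, and lymphatic markers differed: Ccl21a had a log2 fold change of 0.95 and Prox1 0.29. Of the 10, only Ccl21a and Nrp2 (0.84) had a larger value than the 0.82 of Igf1r. In 7 of the 10 every old sample lay above every young one, as in 5.56% of all genes tested. The ages overlapped for Prox1, Pdpn and Tek. Ratios of Igf1r to single markers were not taken. The part of either cell type in the Igf1r values was not tested.

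Insr, which encodes the insulin receptor, did not separate the ages. Its level was 113, 341 and 265 CPM at the young age, against 328, 312 and 325 CPM at the old age. Young sample 1 was low, as it was for Igf1r, and the other young samples lay on both sides of the old ones. The log2 fold change was 0.43 (SE 0.37) with edgeR adjusted p = 0.944, and it was 0.09 without young sample 1 and 0.76 without young sample 2. Per kilobase, the ratio of Igf1r to Insr was 1.10, 0.549 and 0.713 at the young age, against 0.963, 0.809 and 0.962 at the old age. The mean log2 ratio differed by 0.27 between the ages, with a two-sided exact permutation p = 0.6, where 3 samples against 3 cannot give a p below 0.1. The ratio of the ligand gene Igf1 to Igf1r per kilobase was 9.23, 3.59 and 2.53 at the young age, against 1.09, 1.41 and 1.44 at the old age, without overlap, as the separate values of those genes already imply.

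**Figure D3:**
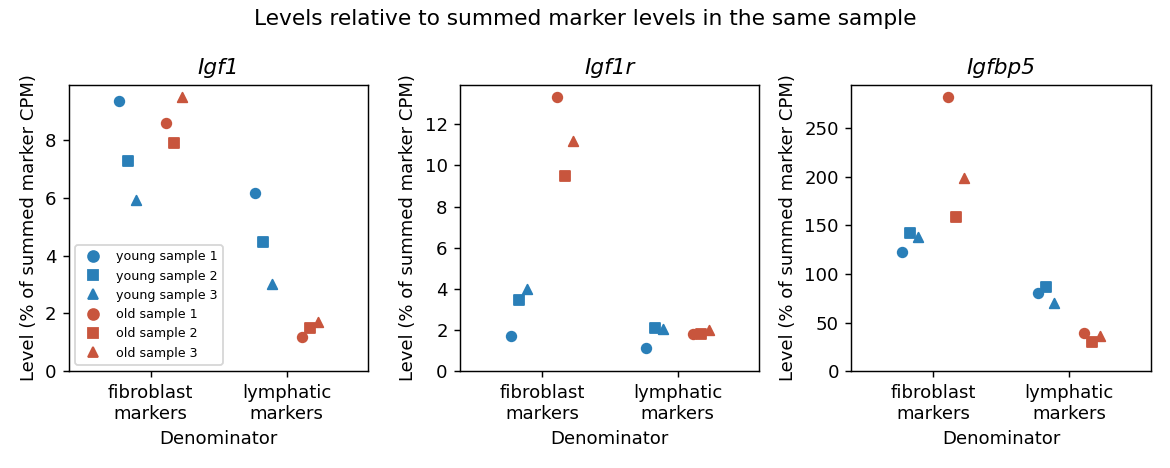
Levels of Igf1, Igf1r and Igfbp5 in each sample as a percentage of the summed CPM of 10 fibroblast markers and of 10 lymphatic endothelial markers in the same sample. Relative to fibroblast markers Igf1 overlaps between the ages while Igf1r and Igfbp5 are higher in every old sample, and relative to lymphatic markers Igf1r overlaps while Igf1 and Igfbp5 are lower in every old sample.

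Igfbp5, which encodes a matrix-binding IGFBP that proteases cleave, had lower values in old cells, with overlap. Its level was 10820.1, 9450.2 and 7972 CPM in young samples 1, 2 and 3, against 8180.5, 5151.3 and 6796 CPM in old samples 1, 2 and 3. Old sample 1 lay above young sample 3, and the other old samples lay below all young ones. The log2 fold change was −0.49 (SE 0.19) with edgeR unadjusted p = 0.0292 and adjusted p = 0.888. The unadjusted p was 0.101, 0.0623, 0.092 and 0.0605 without young sample 1, young sample 2, old sample 2 and old sample 3, and 0.147 by DESeq2. As a share of the lymphatic marker sum, Igfbp5 was 80.7%, 86.9% and 70.1% in young samples 1, 2 and 3 and 38.8%, 30.0% and 35.7% in old samples 1, 2 and 3. As a share of the fibroblast marker sum it was 122.1%, 141.9% and 137.8% in the young and 281.8%, 158.4% and 198.6% in the old samples. The direction of the difference therefore depended on the denominator. Old samples were lower relative to the lymphatic sum and higher relative to the fibroblast sum, without overlap in either case. This does not hold for each fibroblast marker: beside −0.49 for Igfbp5, the log2 fold change was −1.57 for Col1a2 but −0.33 for both Pdgfra and Dcn.

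Igfbp7 had the smallest spread of the 9, at 376, 334 and 285 CPM at the young age, against 290, 303 and 315 CPM at the old age. The old samples lay inside the young range, and the log2 fold change was −0.13 (SE 0.22), with edgeR adjusted p = 0.969. It was −0.03 without young sample 1 and −0.24 without young sample 3. Igfbp4, which encodes the binding protein cut by the protease PAPP-A, had 867, 518 and 582 CPM (young) against 669, 436 and 743 CPM (old). Its log2 fold change of −0.09 (SE 0.28) turned to 0.17 without young sample 1 and to 0.11 without old sample 2, with edgeR adjusted p = 0.985 over all samples. Igfbp3, whose product carries most IGF in blood, had 110.0, 153 and 124 CPM (young) against 90.2, 135 and 155 CPM (old), a log2 fold change of −0.02 (SE 0.33) with edgeR adjusted p = 1.0. The ages overlapped for these 3 genes, and for Igfbp3 and Igfbp4 the sign of the difference was not stable. Relative to the lymphatic marker sum all 3 were lower in every old sample, with mean log2 differences of −0.81 for Igfbp7, −0.77 for Igfbp4 and −0.73 for Igfbp3. Relative to the fibroblast marker sum all 3 were higher in every old sample, at 1.01, 1.04 and 1.09. By construction, a gene with little change goes down relative to the higher lymphatic sum and up relative to the lower fibroblast sum. The direction for these 3 genes therefore depended on the denominator, and whether they differed within any cell type was not tested.

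Igfbp2 and Igfbp6 were the least abundant binding protein transcripts and varied most. Igfbp2, which encodes an RGD-containing binding protein of brain fluid and meninges, had 13.3, 25.2 and 30.3 CPM (young) against 7.48, 12.1 and 15.8 CPM (old). Only young sample 1 lay within the old range, and the log2 fold change was −0.96 (SE 0.75) with edgeR adjusted p = 0.934. Igfbp6, whose product prefers IGF2 over IGF1, had 34.0, 23.5 and 29.4 CPM (young) against 1.42, 12.1 and 40.1 CPM (old). Old sample 1 held 19 estimated counts of Igfbp6 against 167 and 821 in old samples 2 and 3, so the old samples lay on both sides of the young ones. The log2 fold change was −0.69 (SE 1.02) with edgeR adjusted p = 0.965, and it was −2.09 without old sample 3 and −0.15 without old sample 1.

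**Figure D4:**
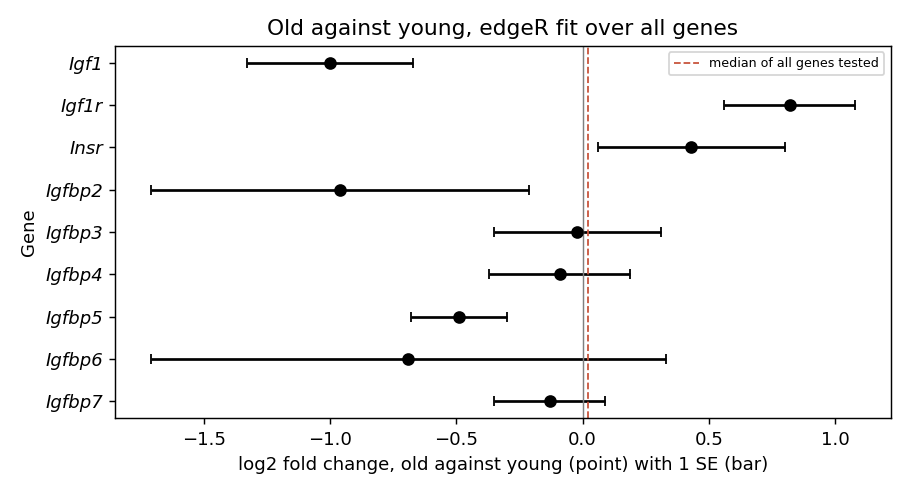
Log2 fold change of old against young cells from the edgeR fit over all genes (points, 3 samples per age) with 1 standard error (bars) for the 9 genes, and the median of all genes tested (dashed line). Igf1 lies at −1.0 and Igf1r at 0.82, Igfbp3 lies near 0, and Igfbp2 and Igfbp6 have the widest errors.

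Other genes of the IGF system were read from lists of pathway genes, and none of them passed the edgeR test over all genes. Of the other ligands, receptors and carriers, 3 of the 8 listed were tested and all 3 had negative log2 fold changes, with a median of −0.89. Igf2, the second IGF ligand, had 2135.6, 1887 and 1611.5 CPM (young) against 952, 1302.8 and 1501.2 CPM (old). Its log2 fold change was −0.58 (SE 0.21), with edgeR unadjusted p = 0.0204 and adjusted p = 0.863. Igf2r, whose product takes up IGF2 for degradation, had 161.0, 134 and 147 CPM (young) against 98.0, 80.2 and 60.3 CPM (old), a log2 fold change of −0.89 (SE 0.32) with edgeR adjusted p = 0.867. For both genes every old sample lay below every young one, as for 6.44% of all genes tested. Insrr, an orphan relative of the insulin receptor, had at most 4.82 CPM. Igfals and Igfbpl1 did not pass the filter, and Ins1, Ins2 and Igfbp1 were not analysed here.

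Proteases that cut binding proteins, with their inhibitors, had 5 positive and 6 negative log2 fold changes among 11 tested, with a median of −0.13. Adamts1, a secreted metalloprotease, had 120.0, 146 and 135 CPM (young) against 201, 223 and 306 CPM (old), without overlap, and a log2 fold change of 0.86 (SE 0.28) with edgeR adjusted p = 0.819. Plau, the urokinase gene, had a log2 fold change of 0.77 (SE 0.37), and Mmp2, a gelatinase of fibroblasts, −1.09 (SE 0.59). Their edgeR adjusted p-values were 0.890 and 0.891. Single samples moved both values: Plau was at 0.44 without old sample 1, and Mmp2 at −1.94 without old sample 1 and −0.69 without old sample 2. Pappa, which encodes PAPP-A, had 129 ± 19.0 CPM (SD, n = 3) in young and 108 ± 37.5 CPM (SD, n = 3) in old cells, and its value is given because it cuts the Igfbp4 product, not by the rule for named genes.

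Adaptors and regulators of the receptors had 6 positive and 12 negative log2 fold changes among 18 tested, with a median of −0.10. Lrp1, an endocytic receptor that binds IGFBP3, had 2295.2, 2234.3 and 1930 CPM (young) against 1490, 1120.4 and 1506.2 CPM (old). These did not overlap, and the log2 fold change was −0.65 (SE 0.17) with edgeR unadjusted p = 0.00479 and adjusted p = 0.693. Gab1, a docking adaptor, had a log2 fold change of 0.76 (SE 0.35) and Shc1, an adaptor of the Ras pathway, −0.58 (SE 0.32), with edgeR adjusted p = 0.888 and 0.891. Gab1 was at 0.36 without old sample 1 and Shc1 at −0.22 without young sample 1. PI3K, Akt and FoxO genes had 8 positive and 10 negative values among 18 tested, with a median of −0.04. Foxo1, a transcription factor that Akt inactivates, had 295, 257 and 257 CPM (young) against 651, 294 and 408 CPM (old), a log2 fold change of 0.74 (SE 0.30) with edgeR adjusted p = 0.888. Old sample 1 was the highest, and without it the log2 fold change of Foxo1 was 0.38. Tsc1, a brake on mTOR, was at −1.38 (SE 0.61), and at −0.58 without young sample 1. The 6 growth hormone axis genes, upstream of Igf1 in liver, had a median of 0.06. Ghr, the growth hormone receptor gene, was at 0.12 (SE 0.38), Stat5a at 0.40 (SE 1.03) and Stat5b at −0.43 (SE 0.64), with wide errors.

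**Figure D5:**
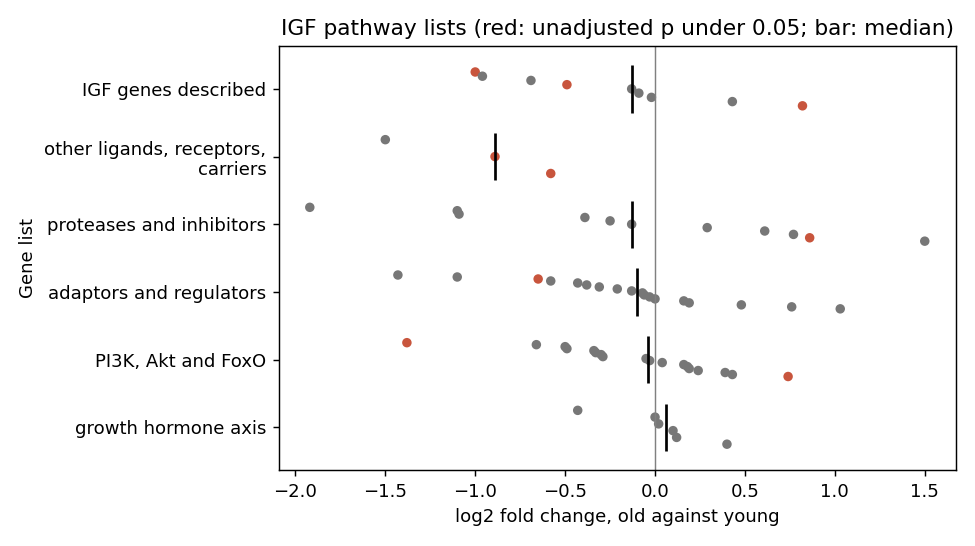
Log2 fold change of old against young cells for each tested gene of the 9 described and of 5 IGF pathway lists (points; red where the unadjusted p was under 0.05), with the median of each list (black bar). The medians lie between −0.13 and 0.06 except for the other ligands, receptors and carriers, where 3 genes have a median of −0.89.

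The genes nearest in pattern to each member were found as the smallest root mean square difference of mean-centred log2 CPM over the 6 samples, among 6821 other named genes of at least 20 CPM. For Igf1 they were Epg5, an autophagy gene, at 0.10 log2 units, and Mrc2, which encodes a collagen uptake receptor, at 0.13. Mrc2 had 657, 430 and 357 CPM (young) against 219, 231 and 321 CPM (old), with every young sample above every old one. Such a likeness follows from choosing the gene by its closeness to Igf1 over the same 6 samples. For Igf1r they were Cox15, a heme synthesis gene of mitochondria, and Psma3, a proteasome subunit, both at 0.11. For Igfbp5 they were Nbr1, an autophagy receptor, at 0.10 and Ccdc88a, which encodes the actin-binding protein girdin, at 0.11. For Igfbp3 the nearest was Nid1, the basement membrane protein nidogen, at 0.08, and for Igfbp7 it was Arid1b, a chromatin remodelling subunit, at 0.08. The nearest gene to Igfbp6 was farther in log2 units, Rabif at 0.23, but Igfbp6 also varied most. The SD of log2 CPM over the 6 samples was 1.77 for Igfbp6 and 0.15 for Igfbp7. The distances are not scaled to this spread, so they do not rank how close the matches are between members.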

How the data were processed

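RNA of 3 young and 3 old samples was amplified linearly and sequenced, per the labels' protocols. FastQC, Salmon and the build mm10 stand in the submitters' processing notes, with no version or role. The authors deposited estimated counts per gene (expected counts), already whole numbers; how they were annotated and rounded is not stated there. Symbols, positions and exon lengths come from GENCODE M21 (GRCm38), and promoter sequences from RefSeq (GRCm38.p6).

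Genes were filtered with filterByExpr (minimum 10 counts, total 15), scaled by TMM and tested with edgeR 4.0.16 in R 4.3.3 (robust quasi-likelihood, two-sided, Benjamini-Hochberg over 15394 genes, threshold 0.05), which was tested on simulated data. The outcome of that simulation is not given here. The common biological coefficient of variation, the spread between samples of one age, was 90.1%. With 3 samples per age, a gene that was not called may still differ. CPM uses TMM-adjusted library sizes, and log2 CPM a prior count of 2. Alternatives were DESeq2 1.42.0, limma-voom (limma 3.58.1), other scalings and filters, the replicate number as a block, and leaving out each sample. Members and lists were chosen with earlier results of these data known. Lists were described by counts and medians, without a test. Always named were the 9 genes; from each pathway list up to 3 genes of at least 5 CPM with the smallest p; and the 2 genes nearest in pattern, of which some are given. Marker ratios were added after the values were seen. Files of other kinds were not used. One gene that the rule names is not reported here.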

Additional observations from a re-analysis of the deposited data

How the results depend on the processing

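None of the 9 genes was called under any of the 13 alternatives run, nor was any gene of the pathway lists. Over all genes, edgeR's 0 calls became 130 with DESeq2 and 3 with limma-voom, and ranged from 0 to 1 when 1 sample was left out (1 without old sample 1). The 856 genes at an unadjusted p under 0.05 became 1374 with DESeq2 and 1543 without a filter on low counts, and ranged from 696 to 1396 when 1 sample was left out (1396 without old sample 2). With library size as the only scaling the log2 fold change of the median gene went from 0.02 to −0.12, and 285 of 831 such genes were higher in old cells, against 441 of 856. The 3 of the 9 genes at that level ranged from 1 to 3, with Igf1r alone without young sample 1. Of the pathway genes 6 were at that level, which 5.56% of all genes tested and 12.2% of those of at least 100 CPM reached. They were 2 of 3 tested other ligands, receptors and carriers, 1 of 11 proteases and inhibitors and 1 of 18 adaptors and regulators. The others were 2 of 18 PI3K, Akt and FoxO genes, with 0 of 6 growth hormone axis genes. Their number ranged from 3 to 8, with 3 without young sample 1, up to 7 when 1 sample was left out, and 8 with limma-voom and with library size only. Igf1, Igf1r, Insr, Igfbp2, Igfbp5, Igfbp6 and Igfbp7 kept their direction in all 13. Igfbp3 turned to 0.01 with DESeq2 and ranged from −0.19 to 0.17 when 1 sample was left out, and Igfbp4 from −0.25 to 0.17. Stat5b ranged from −0.79 to 0.02, Stat5a from −0.14 to 2.02 and Ghr from −0.10 to 0.32, with Ghr at −0.02 with library size only. The cause of these shifts was not tested. Relative to summed fibroblast markers, an alternative chosen after seeing the data, the log2 difference was 0.22 for Igf1, 0.63 for Igfbp5 and 1.97 for Igf1r, and relative to lymphatic markers −1.6, −1.19 and 0.15; by construction these carry the lower fibroblast and higher lymphatic marker sums of the old samples. With the longest transcript as length, Insr and Igf1r ranked above Igfbp6, and Igfbp4 overlapped Igf1. The Igf1r to Insr log2 difference ranged from 0.04 to 0.54 when 1 sample was left out. The labels number samples 1 to 3 at each age without saying that a number is shared; same-numbered samples had deviations correlated at 0.08, 0.05 and −0.01, so they were not treated as pairs. With the replicate number as a block, edgeR called 0 genes, 712 were at an unadjusted p under 0.05, and the 9 genes gave the same 3 at that level. The lowest estimated count of any of the 9 genes in a sample was 19, for Igfbp6 in old sample 1.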
